A study of Mus musculus with 8 samples.

Results

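The comparison set the InvIntra library against the InvC∆Bor library, a pair of mouse mutants in which the Sox9 gene desert is inverted and of which InvIntra alone keeps the boundary sequence at its original place, at 111.38 Mb of chromosome 11 (mm9). The members were the pairs of 10 kb bins between Kcnj2 and a domain edge on the far side of Sox9 (chr11:110920001-113030000) that hold the same sequence in both mutants, 20708 matched pairs of the 172578 bin pairs in a map, and 2 of the 8 libraries analysed here. Each matched pair was placed on one side of the boundary or across it. The 23879 matched bin pairs within the flanks, up to position 110600000 and beyond position 113350000, gave the background between the libraries.

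InvIntra carries the inverted desert with the boundary sequence to its left, whereas InvC∆Bor carries the inverted desert with the boundary sequence deleted. InvC, in which the boundary lies beside Sox9 at the right end of the inverted desert, is used as a further value for orientation. All were homozygous mutants on the G4 embryonic stem cell background, and the tissue was the forelimb and hindlimb buds of embryos at E12.5 (embryonic day). The material of 3 to 8 embryos was pooled for each condition and 1 library was made per genotype, so every interval below is a 95% interval for counting error only, no difference has a replicate check, and no p-value is given. Capture Hi-C ligates DNA ends that lie close together in fixed nuclei after cutting with DpnII, enriches the fragments of one region with probes, and counts the joined pairs.

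Topologically associating domains are stretches of chromosome whose sequences meet each other more often than they meet the sequence next door. Their boundaries usually hold sites of CTCF, a zinc finger protein that halts the cohesin ring as it draws DNA into loops, and the orientation of each site decides from which side it halts the ring. At this locus the boundary separates Kcnj2, which encodes an inwardly rectifying potassium channel, from the domain of Sox9, which encodes the transcription factor that starts cartilage formation in the limb. The Sox9 domain consists largely of a desert without protein-coding genes that holds distant Sox9 enhancers, and the inversion turns this desert round between the boundary and Sox9.

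The sequence fixed in both mutants at the Kcnj2 end is shown because the Kcnj2 promoter was one of the places from which contacts were read. It is credited to RefSeq (GRCm38.p6, a later build than the mm9 of the maps), chr11:111065914-111066213, plus strand, from 250 bases before to 50 bases after the gene start. The capitals mark GATC, the letters that DpnII cuts and where a ligation can be read. Both strands of GATC read alike and copies cannot overlap. The window holds 1 such match, and 48% of the 32851 promoter windows in the table hold at least 1.
Kcnj2: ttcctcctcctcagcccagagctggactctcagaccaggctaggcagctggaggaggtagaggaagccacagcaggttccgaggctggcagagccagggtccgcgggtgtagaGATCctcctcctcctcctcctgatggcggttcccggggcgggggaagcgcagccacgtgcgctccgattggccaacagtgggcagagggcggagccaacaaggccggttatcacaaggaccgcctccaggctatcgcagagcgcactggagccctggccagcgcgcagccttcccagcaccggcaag

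The edited alleles were checked first on the coverage of the maps. The total contacts of each bin correlated over the inverted desert with r = 0.0807 at the same coordinate and with r = 0.904 when InvIntra positions were read further right than InvC∆Bor positions by the best shift (95 bins of the 2 libraries, a description). In 3 parts of the desert taken singly the best shift lay between 17.5 and 19 kb. No shift was needed left of the boundary, where r was 0.986, or right of the desert, where it was 0.992. Mirroring the desert gave r = 0.881 for InvIntra, 0.912 for InvC∆Bor and 0.901 for InvC against the maps with an uninverted desert, while the unmirrored order gave 0.0642 for InvIntra, -0.0350 for InvC∆Bor and -0.0345 for InvC. The bin from 111390001 held 28151 contacts in InvIntra, and between 0 and 8 contacts in the libraries with the boundary deleted and the desert not inverted. In InvC∆Bor it held 12924, since the map places the end of the inverted desert there, so this bin does not tell the mutants apart. The bin from 112500001 held 15230 contacts in InvIntra and 131 in InvC∆Bor, whose map keeps emptied places there. In the maps, then, the desert is mirrored in both mutants, and by the shift it begins further right in InvIntra. Below, positions are those of InvC∆Bor, and the same desert sequence lies 20 kb further right in InvIntra, the shift in whole bins.

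InvIntra had 6234950 raw contacts and InvC∆Bor had 3056502, the fewest of the 8 libraries, which ran up to 9045698. In the flanks, at 20 kb or more, InvIntra had 1385523 contacts and InvC∆Bor had 647160, a ratio of 2.14, by which all ratios of contacts below were scaled. The left flank alone gave 2.16 and the right flank 2.12. The decay of contacts with distance was not the same in the 2 libraries: scaled flank ratios of InvIntra over InvC∆Bor were 0.942 for pairs 20 to 100 kb apart and between 0.984 and 1.06 for longer pairs.

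Contacts across the boundary were fewer in InvIntra. Of all matched contacts in the interval, 10.1% (10.1 to 10.2) joined the Kcnj2 side with the desert or the Sox9 side in InvIntra, and 18.2% (18.1 to 18.3) did so in InvC∆Bor. These shares stand on 148302 of 1464754 contacts in InvIntra and 125270 of 688176 in InvC∆Bor. The ratio of the shares was 0.556 (0.552 to 0.560). InvC, read at the same bins, had 17.6%, which is 0.967 times the InvC∆Bor share, and the InvIntra share was 0.575 times that of InvC. Relative to the mean of the library's own flanks at the same distance, for pairs up to 1.5 Mb apart, contacts across the boundary stood at 0.996 in InvIntra and 1.89 in InvC∆Bor.

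The shortfall had its largest size at the boundary itself. When 400 kb on each side of a position were taken, 12.1% of the contacts crossed the boundary in InvIntra and 26.1% did so in InvC∆Bor, and InvC had 26.9% there. The ratio of InvIntra to InvC∆Bor was 0.465 (0.459 to 0.471) at the boundary, the lowest of the 204 positions between Kcnj2 and the edge. At 154 flank positions the same ratio had a median of 1.06 and ran from 1.02 to 1.13. Ratios below this flank range were found at 42 positions from 111.16 to 111.59 Mb. Ratios above it were found at 11 positions from 110.93 to 111.03 Mb, with the highest, 1.15, beside Kcnj2 at 110.93 Mb.

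**Figure D1:**
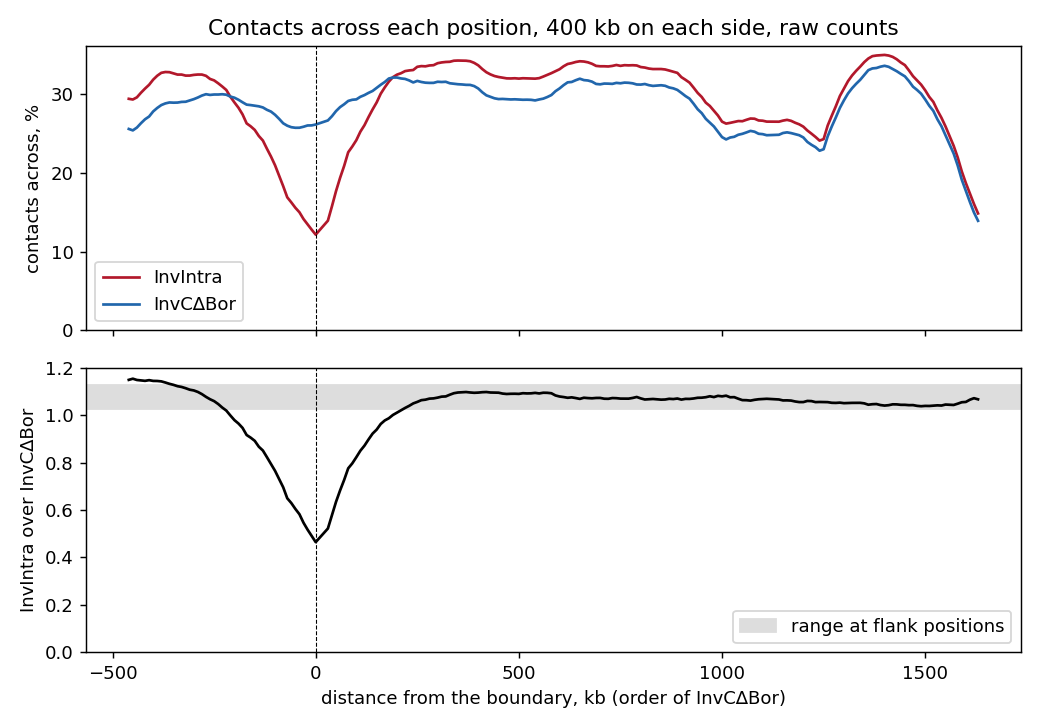
Share of contacts that cross a position, taken over 400 kb on each side, in InvIntra and InvC∆Bor along the interval. The lower panel gives the ratio of InvIntra over InvC∆Bor with the range of the flank positions. The ratio is 0.465 at the boundary, against a flank range of 1.02 to 1.13.

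Insulation was read as the log2 of the balanced contacts that cross a position within 200 kb over their mean along the map, so that a low value marks a boundary. At the boundary it was -2.03 in InvIntra and -0.46 in InvC∆Bor, a difference of -1.58, and InvC had -0.42. The same difference at 234 flank positions had an SD of 0.04 and ran from -0.14 to 0.09. It lay below that range at 24 of 204 positions, all between 111.26 and 111.51 Mb, where it ran from -1.58 to -0.15, the last of these just outside the flank range. It lay above the range at 59 positions, of which 29 formed one stretch within the Kcnj2 side, from 110.93 to 111.21 Mb. The highest difference, 0.24, was in that stretch, at 111.16 Mb. The other positions above the range lay in the desert, from 111.57 to 111.92 Mb. Their differences reached 0.20, and their longest stretches held 11 and 13 positions. At the left end of the Kcnj2 bin insulation was -0.41 in InvIntra and -0.60 in InvC∆Bor, a difference of 0.19 that lay above the flank range. At 3 other places the difference lay within that range. At the domain edge beyond Sox9 insulation was -1.32 in InvIntra and -1.27 in InvC∆Bor, and at the left end of the Sox9 bin it was -0.80 in InvIntra and -0.83 in InvC∆Bor. At the right end of the desert, where InvC holds the boundary sequence and had -1.57, the values were -0.32 in InvIntra and -0.36 in InvC∆Bor.

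**Figure D2:**
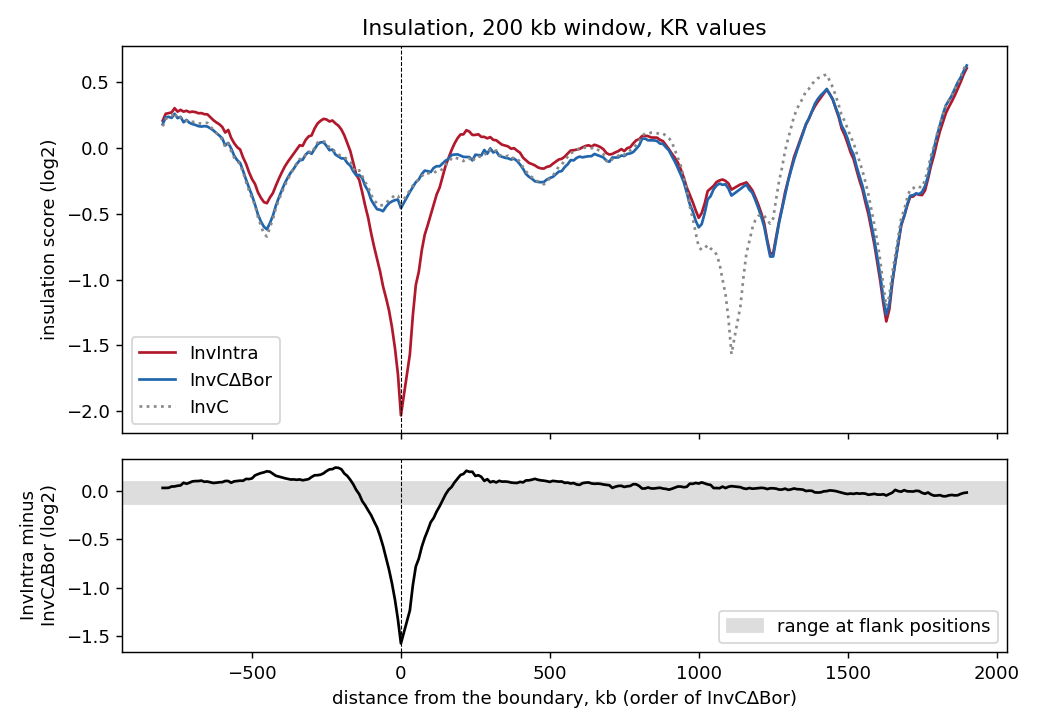
Insulation (log2, 200 kb window, balanced signal) of InvIntra, InvC∆Bor and InvC against the distance from the boundary in kb, and the difference of InvIntra minus InvC∆Bor with the flank range. InvIntra reaches -2.03 at the boundary, where InvC∆Bor has -0.46, while InvC has its own minimum of -1.57 at the right end of the desert.

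By class of bin pair, the Kcnj2 side with the inverted desert had the lowest scaled ratio of InvIntra over InvC∆Bor. It was 0.496 (0.491 to 0.500), from 105595 contacts in InvIntra and 99496 in InvC∆Bor. The Kcnj2 side with the Sox9 side right of the desert had a ratio of 0.774 (0.762 to 0.786), from 42707 contacts in InvIntra and 25774 in InvC∆Bor. Both classes together gave 0.553 (0.549 to 0.557). On either side of the boundary the ratios were near or above 1. The inverted desert with itself gave 1.12 (1.11 to 1.12) and with the Sox9 side 1.18 (1.17 to 1.18), while the Sox9 side with itself gave 1.00 (0.997 to 1.01). All pairs of the desert and the Sox9 side gave 1.11 (1.10 to 1.11), and the Kcnj2 side with itself gave 0.984 (0.974 to 0.993). That last ratio has no settled side of 1, since it was 1.00 when scaled by all matched pairs, 1.07 with balanced values and 1.01 relative to the flank mean at the same distance.

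The ratio across the boundary was lower for shorter distances, taken along the InvIntra map. Each pair across the boundary lies 20 kb farther apart on the edited chromosome of InvIntra than on that of InvC∆Bor. The part of this offset in the order of the ratios was not tested. The ratio was 0.265 (0.241 to 0.290) at 20 to 100 kb, from 724 contacts in InvIntra and 1277 in InvC∆Bor. It was 0.318 at 100 to 200 kb, 0.395 at 200 to 400 kb, 0.470 at 400 to 800 kb, 0.569 at 800 to 1200 kb and 0.720 (0.711 to 0.730) at 1200 to 2200 kb. Within the desert and Sox9 side the order ran upward from 0.984 at 20 to 100 kb to 1.36 at 1200 to 2200 kb. Within the Kcnj2 side it ran upward from 0.896 at 20 to 100 kb to 1.58 (1.43 to 1.74) at 400 to 800 kb, the last from 1782 contacts in InvIntra and 528 in InvC∆Bor. In the flanks the ratios of the distance classes were 0.942 to 1.06.

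To place the difference along the chromosome, the Kcnj2 side was divided into 3 parts and the desert into 4, numbered from the left of the mutant map. The first desert part lies next to the boundary in InvIntra and next to the deleted boundary in InvC∆Bor. In the reference order it lies at 112.23 to 112.5 Mb, at the Sox9 end of the desert. It had ratios of 0.351 to 0.417 with the Kcnj2 parts. The next desert part had 0.437 to 0.485, the one after it 0.523 to 0.629, and the last, which holds the 111.41 to 111.69 Mb of the reference order, 0.610 to 0.770. The lowest of all was that of the first desert part with the Kcnj2 part next to the boundary, with 11110 contacts in InvIntra and 14784 in InvC∆Bor and a ratio of 0.351 (0.342 to 0.360). The opposite order was seen on the other side. The first desert part had ratios of 1.32 to 1.35 with the 2 farthest parts of the desert and with both parts of the Sox9 side, and the last desert part had 1.06 and 1.09 with the Sox9 side. Within the Kcnj2 side the outermost parts met each other at a ratio of 1.26 (1.23 to 1.30), from 20320 contacts in InvIntra and 7522 in InvC∆Bor.

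The same comparison in pairs of 50 kb blocks at least 100 kb apart, with 200 or more contacts over both libraries, gave 278 pairs across the boundary. Of these, 182 were at least 1.5-fold lower in InvIntra, 65.5% of those measured, and 0 were at least 1.5-fold higher. In the flanks 0.252% of 795 pairs were at least 1.5-fold lower and 0.126% were at least 1.5-fold higher. Of these 795 flank pairs 262 had a log2 ratio below 0 and 533 had one above 0. Of the pairs across the boundary 271 had a log2 ratio below 0, and 124 lay within the range of the flank pairs, which was -0.77 to 0.76. Their median log2 ratio was -0.85, against 0.07 in the flanks. With the desert, 164 of 188 pairs were past the 1.5-fold limit and the median was -1.04, and with the Sox9 side 18 of 90 pairs were past it and the median was -0.40. Within the Kcnj2 side 0 of 28 pairs (0%) passed the limit in either direction, and the median was 0.10. All 28 lay within the range of the flank pairs. Within the desert and Sox9 side 30 of 436 pairs, 6.88%, were at least 1.5-fold higher and 0 were lower, with a median of 0.24. Here 430 pairs were above 0, and 431 of the 436 lay within the range of the flank pairs.

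**Figure D3:**
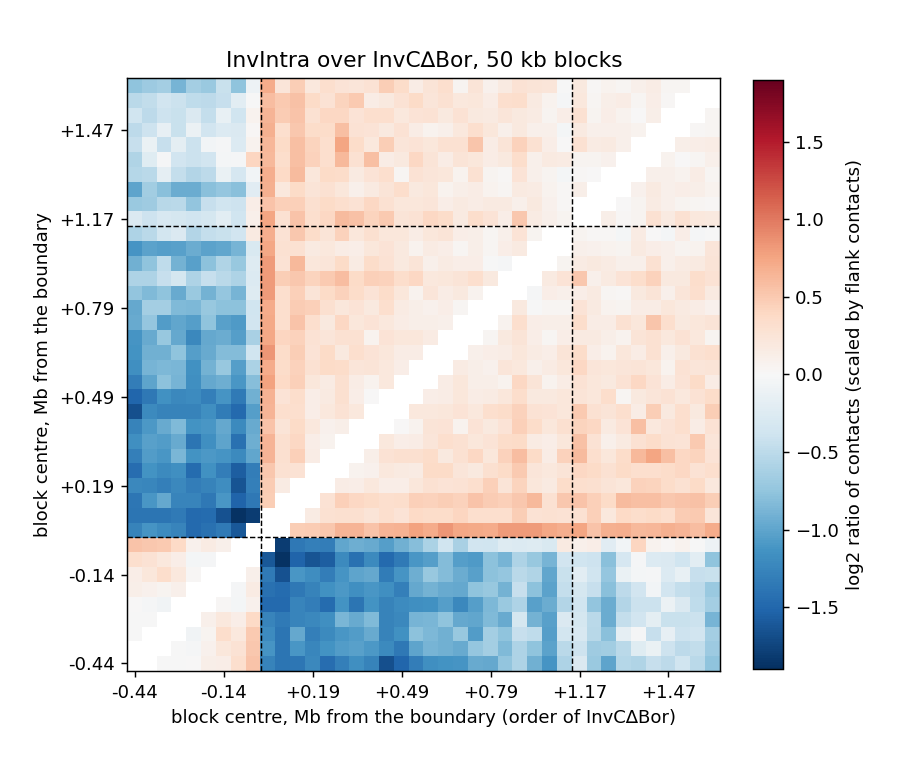
Log2 ratio of contacts, InvIntra over InvC∆Bor and scaled by flank contacts, for pairs of 50 kb blocks. Axes give the distance of each block from the boundary in Mb in the order of InvC∆Bor, dashed lines mark the boundary and the right end of the desert, and pairs under 100 kb apart are white. Blue blocks, lower in InvIntra, fill the rectangles across the boundary, down to -1.88, and a red stripe marks the first desert block.

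The lowest pair across the boundary joined the blocks from 111.27 and 111.45 Mb. It had 601 contacts in InvIntra and 1030 in InvC∆Bor, although InvIntra was the deeper library, and its scaled ratio was 0.273 (0.246 to 0.302). The pair of 111.32 with 111.45 Mb came next, with 794 contacts in InvIntra and 1291 in InvC∆Bor and a ratio of 0.287. The third, the Kcnj2 block from 110.92 Mb with the block from 111.8 Mb, had 446 contacts in InvIntra and 661 in InvC∆Bor and a ratio of 0.315 (0.279 to 0.356). Balanced values gave log2 ratios of -1.70, -1.72 and -1.59 for these 3 pairs. The next 2 were the block from 111.22 Mb with that from 111.45 Mb and the block from 111.27 Mb with that from 111.55 Mb, with ratios of 0.316 and 0.321.

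The blocks of the Kcnj2 side were not alike. The block from 111.32 Mb, the one next to the boundary, had 12 of 30 pairs across the boundary past the 1.5-fold limit and a median log2 ratio of -0.32, while the other Kcnj2 blocks had 19 to 23 of 31 pairs past it and medians between -1.04 and -0.77. All 5 of the highest pairs across the boundary ended in this block. The highest, with the block from 112.73 Mb on the Sox9 side, had 609 contacts in InvIntra and 215 in InvC∆Bor, which gives a ratio of 1.32 (1.13 to 1.55). The other 4 had ratios of 1.05 to 1.12, and their intervals all included 1. This block also had the highest pairs within the Kcnj2 side. With the Kcnj2 block from 110.92 Mb it had 1847 contacts in InvIntra and 592 in InvC∆Bor, which gives a ratio of 1.46 (1.33 to 1.60). The other 4 of the 5 highest pairs within the Kcnj2 side had ratios of 1.27 to 1.43, and the 5 lowest had 0.951 to 0.991, with intervals that all included 1.

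In the desert the first block, from 111.40 Mb, stood apart in the other direction. It was an end of 24 of the 30 pairs that were at least 1.5-fold higher, and its pairs within the desert and Sox9 side had a median log2 ratio of 0.68 (0.47 to 0.84 over 29 pairs). The highest of them, with the block from 112 Mb, had 2247 contacts in InvIntra and 587 in InvC∆Bor, which gives a ratio of 1.79 (1.63 to 1.96). The other 4 of the 5 highest, all ending in the same block, had ratios of 1.70 to 1.76. The 5 lowest pairs within the desert and Sox9 side had 0.970 to 0.992, with intervals that all included 1. With the Kcnj2 side all 8 pairs of the same block were past the limit on the low side, with a median of -1.30. Total contacts of the first 5 desert bins were themselves mostly higher in InvIntra, with scaled log2 ratios from -0.11 to 0.29. The median of these bins was 0.27, against -0.04 over the desert. Balancing, which evens out such totals, gave a median of 0.54 for the block's pairs and left 12 of the 30 pairs past the limit, and 100 kb blocks left 1 of 105 pairs. The part of bin coverage in the stripe was not tested.

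**Figure D4:**
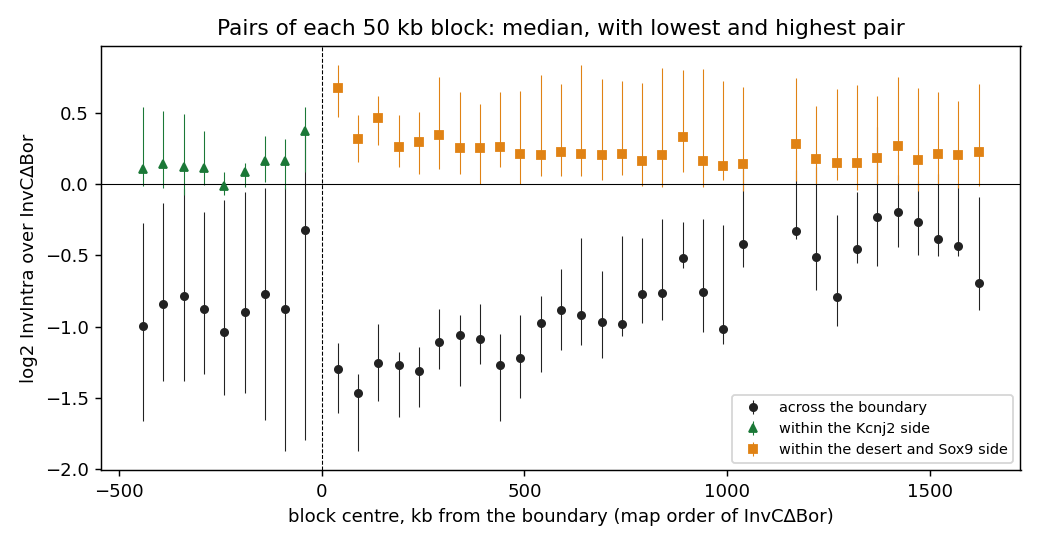
Median log2 ratio of contacts, InvIntra over InvC∆Bor, of each 50 kb block with the blocks across the boundary and with the blocks on its own side, against the block's distance from the boundary. Medians across the boundary are lowest in the desert blocks near it, -1.47 at 111.45 Mb, and the first desert block has the highest median on its own side, 0.68.

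From a 30 kb window at Kcnj2 (the bin from 110.92 Mb and its neighbours), the other side of the boundary took 18.9% (18.6 to 19.2) of 56712 contacts in InvIntra and 33.8% (33.3 to 34.4) of 31555 in InvC∆Bor, which gives a ratio of 0.559 (0.546 to 0.572). At 88 flank windows the share of contacts 450 to 900 kb away had ratios from 0.959 to 1.28. This background covers only those distances, whereas the other side of the boundary reaches on to the domain edge. The desert took 13.3% in InvIntra and 26.3% in InvC∆Bor, and the Sox9 side took 5.63% in InvIntra and 7.53% in InvC∆Bor. Beyond the domain edge the window had 4.58% in InvIntra and 4.67% in InvC∆Bor, and the interval of that ratio included 1 (0.922 to 1.04). The rest of the window's contacts lay more often on the side of Kcnj2. Its own side held 25.9% in InvIntra and 20.9% in InvC∆Bor, and everything left of Kcnj2 held 50.6% in InvIntra and 40.6% in InvC∆Bor. The Kcnj2 part next to the boundary had the highest ratio within the interval, 1.46 (1.38 to 1.54).

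From the window at Sox9 (the bin from 112.64 Mb and its neighbours), the Kcnj2 side took 4.40% (4.24 to 4.57) of 58458 contacts in InvIntra and 7.42% (7.12 to 7.73) of 28294 in InvC∆Bor, which gives a ratio of 0.593 (0.561 to 0.627). The flank windows above, read at 450 to 900 kb, do not reach the distances between Sox9 and the Kcnj2 side. Everything left of Kcnj2 took 8.85% in InvIntra and 14.5% in InvC∆Bor. The desert took 39.8% in InvIntra and 34.2% in InvC∆Bor. The ratio was 1.30 for the first desert part, which lies farthest from Sox9 in these mutants, then 1.19 and 1.15, and 1.09 for the part nearest to Sox9. Among the 50 kb blocks of the Sox9 side, the one with Sox9, from 112.63 Mb, had 8 of 9 pairs with the Kcnj2 side past the 1.5-fold limit, and the last one before the edge, from 112.98 Mb, had 7 of 9.

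**Figure D5:**
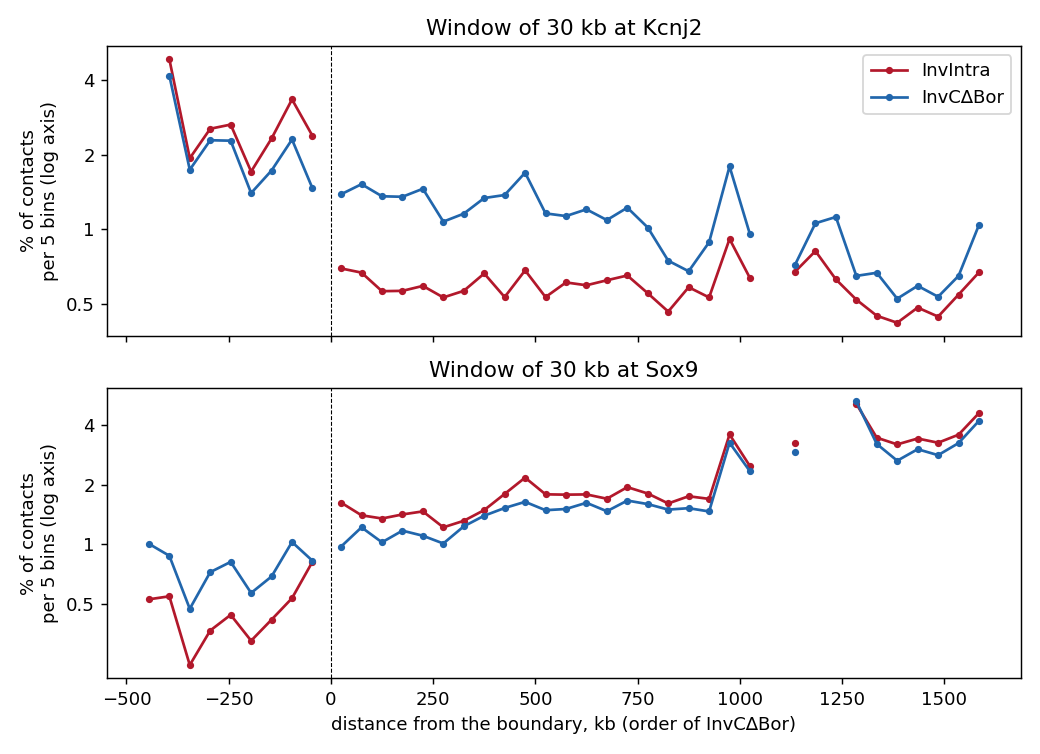
Contacts from Kcnj2 (top) and from Sox9 (bottom), each read in a 30 kb window, as the share that lay in each group of 5 bins, in percent on a log axis, for InvIntra and InvC∆Bor, against the distance from the boundary in kb. Groups with a bin within 20 kb of the window are left out. Between the boundary and the domain edge the Kcnj2 window is lower in InvIntra at every point drawn, and left of it the Sox9 window is lower in InvIntra, least so in the group next to the boundary.

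Pairs of the single places Kcnj2, Sox9 and the domain edge gave the same order. Kcnj2 with Sox9 had 242 contacts in InvIntra and 250 in InvC∆Bor, a scaled ratio of 0.452 (0.377 to 0.542). Kcnj2 with the domain edge had 235 contacts in InvIntra and 211 in InvC∆Bor, which gives a ratio of 0.520 (0.430 to 0.629). Sox9 with the same edge, both on one side of the boundary, had 1540 contacts in InvIntra and 672 in InvC∆Bor, and its ratio of 1.07 (0.977 to 1.17) was not distinguishable from 1 by counting error.

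The 30 kb on either side of the boundary differed in their partners. The first 30 kb of the inverted desert had 588 contacts with Sox9 in InvIntra and 150 in InvC∆Bor, which gives a ratio of 1.83 (1.53 to 2.21). With the edge it had 491 in InvIntra and 135 in InvC∆Bor, which gives a ratio of 1.70 (1.40 to 2.07). With Kcnj2 it had 247 in InvIntra and 243 in InvC∆Bor, which gives a ratio of 0.475 (0.396 to 0.569). These are raw contacts, and total contacts of the first 5 desert bins had a median scaled log2 ratio of 0.27, against -0.04 over the desert. The part of bin coverage in these ratios was not tested. The first 30 kb of the inverted desert lay at its Sox9 end in the reference order. The inversion moved them next to the boundary in InvIntra and next to the deleted boundary in InvC∆Bor. The 30 kb left of the boundary had 828 contacts with Kcnj2 in InvIntra and 284 in InvC∆Bor, which gives a ratio of 1.36 (1.19 to 1.56), and with Sox9 it had 288 in InvIntra and 158 in InvC∆Bor, which gives a ratio of 0.851 (0.699 to 1.04), whose interval includes 1.

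Of these 2 mutants InvIntra alone has the boundary bin, so its contacts have no counterpart in InvC∆Bor. Read over 3 bins at a time and relative to the mean of the whole InvIntra map at the same distance, its balanced contacts at least 200 kb away had a median of 0.453 with the Kcnj2 side, 2.34 with the desert and 2.90 with the Sox9 side, against 0.585 in the left flank and 0.490 in the right flank. Its highest values were 13.2 at 113.02 Mb (586 contacts), the bin before the domain edge, 9.90 at 112.4 Mb of the InvIntra map (1026 contacts), which is 111.51 Mb in the reference order, and 9.73 at the Sox9 bin (582 contacts). To the left the highest was 6.15 at 110.36 Mb (485 contacts), beyond Kcnj2. Counted over equal numbers of bins from 20 kb away, the boundary bin had 2355 contacts with the Kcnj2 side and 5196 to its right.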

How the data were processed

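Capture Hi-C maps of 1 library per genotype were used. The raw maps deposited by the authors hold counts of contacts between 10 kb bins, and their balanced maps hold a signal, the same contacts after Knight-Ruiz balancing, as the deposited names say. Bowtie2 2.2.6, Juicer and the build mm9 are named in the submitters' processing notes; filters and settings were not given in the sources used here. Mutant maps follow the order of the edited chromosome, as the coverage check showed. Wild type was not analysed here.

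From these files, desert bins of InvIntra were matched to InvC∆Bor bins 20 kb to the left, and 1 bin on each side of a junction was left out. Pairs under 20 kb apart were left out. Contacts were scaled by flank contacts. Intervals are at 95%, exact (Clopper-Pearson) for shares, exact conditional binomial for ratios of contacts and log-normal for ratios of shares. Reads carry no molecular identifiers in the sources used here, so intervals cover counting error only. Expected values of bin classes are the mean of a library's flanks at the same distance up to 1.5 Mb, counted along the edited chromosome, and those of the boundary bin are the mean of the whole InvIntra map. The emptied bins of InvC∆Bor were taken out of these distances. The steps were tested on simulated data with a shift of 20 kb in whole bins and the same decay of contacts in both libraries. There the set shift was recovered, and so was the set ratio across the boundary, read relative to the flank mean at the same distance. A shift in fractions of a bin and unlike decays were not simulated. With no change simulated, the insulation difference at the boundary still lay just below the flank range, so the weakest positions below that range are not told apart from the effect of matching. The members, segments and limits were chosen with earlier results of these data known. Block pairs were named from the 5 lowest and 5 highest of each class, in full or by their range, the block pairs past 1.5-fold by counts, and the places Kcnj2, Sox9, the boundary and the edge. The Kcnj2 and Sox9 bins were taken from general knowledge of the mm9 positions of these genes and not from a table, since the RefSeq tables used here are of another build; all values at these places rest on them. Alternatives varied the scaling, balancing, matching, block size, windows, depth (InvIntra thinned) and bins left out. Python 3.11.15, numpy 2.4.6, scipy 1.17.1 and matplotlib 3.10.9 were used.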

Additional observations from a re-analysis of the deposited data

How the results depend on the processing

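Of 85 alternatives, 47 stayed within the counting interval or within 1.5 times the count, and 38 moved. These 47 include many counts of block pairs that were 0 and remained 0. The ratio within the Kcnj2 side turned from below 1 to above 1, and no other result among these alternatives changed its direction. Some block pairs near a ratio of 1 did so with balanced values. The 5 lowest pairs within the Kcnj2 side then had log2 ratios of 0.0771 to 0.196. The 5 lowest within the desert and Sox9 side had -0.0228 to 0.0555. The ratio of cross-boundary shares, 0.556, was 0.584 with balanced values, 0.564 with no shift of desert positions, 0.561 with a shift in fractions of a bin by weights, 0.465 with 400 kb on each side, 0.528 with the right side ending at Sox9, 0.569 with no bins left out, 0.545 with 3 bins left out and 0.526 relative to the flank mean at the same distance. The scaled ratio across, 0.553, was 0.564 when scaled by all matched pairs, 0.573 with balanced values and 0.526 relative to distance. Within the Kcnj2 side, 0.984 became 1.00, 1.07 and 1.01 under those 3 settings. Within the desert and Sox9 side, 1.11 became 1.13 when scaled by all matched pairs, 1.08 with balanced values and 1.11 with a shift of 1 bin. With 100 kb blocks 45 of 60 pairs across were lower, against 182 of 278 at 50 kb. Higher pairs within the desert and Sox9 side numbered 30, 12 with balanced values and 1 with 100 kb blocks, and within the Kcnj2 side 0, and 1 with balanced values. The insulation difference of -1.58 was -1.84 within 100 kb, -1.33 within 400 kb and -1.53 on raw counts with InvIntra thinned. With no shift of desert positions, a setting chosen after seeing the data that makes the map distance across equal, it was -1.48. The Kcnj2 ratio of 0.559 was 0.534 with balanced values, and the Sox9 ratio of 0.593 was 0.536 with a 10 kb window and 0.634 with no bins left out. The cause of these movements was not tested. No paired analysis was possible because each genotype had 1 library. Library, embryo pool and genotype cannot be told apart.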

Other observations

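Contacts that reach out of the interval differed in the same manner on each side of the boundary. The 32 bins left of Kcnj2, next to the left flank, had 83344 contacts with the desert and Sox9 side in InvIntra and 63228 in InvC∆Bor, a scaled ratio of 0.616 (0.609 to 0.622). The left flank beyond them had 223123 such contacts in InvIntra and 146732 in InvC∆Bor, which gives a ratio of 0.710 (0.706 to 0.715). The Kcnj2 side met the same 32 bins at a ratio of 1.17 (1.16 to 1.19), with 91071 contacts in InvIntra and 36330 in InvC∆Bor. It met the left flank at a ratio of 1.31 (1.30 to 1.33), with 158052 contacts in InvIntra and 56176 in InvC∆Bor. With everything right of the domain edge the ratios were 0.901 (0.886 to 0.918) for the Kcnj2 side and 1.11 (1.11 to 1.12) for the desert and Sox9 side. The left and right flanks with themselves gave 1.01 and 0.991.

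Total contacts per bin, scaled by flank contacts, were lower on the Kcnj2 side in InvIntra, with a median log2 ratio of -0.18 over 46 bins, and nearly as low in the 32 bins left of Kcnj2, with -0.16, against -0.04 on the Sox9 side and -0.08 and -0.06 in the left and right flanks.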
